A study of Mus musculus with 6 samples.

Results

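The p65 peaks of aged epidermis under IL-17 blockade were compared with those of aged epidermis under a control IgG. Every peak that the authors called in the 2 aged pools was included, which gave 10183 of the 18708 peaks in the series. Of these, 4169 came from the pool named aged/IgG control (the control below) and 6014 from the pool named aged/anti-IL-17A/F (the anti-IL-17 pool below). All mice were C57bl/6J, and no transgene or mutation is named for them. They were 73 weeks old at the start and had received intraperitoneal injections for 12 weeks, either of antibodies that block IL-17A and IL-17F or of the control IgG. Epidermal cells were separated with trypsin, p65-bound chromatin was immunoprecipitated, and the reads of 4 mice a group were merged before peaks were called, so that each group is 1 pool with no replicate. No test between the groups was possible for any value below, all intervals are 95% Wilson intervals, the limit beside a count of 0 is that of 3 counts, both cover counting error only, and differences are described, not called significant. The lists do not give the number of reads under a peak. The strength of a peak is given by the fold enrichment that the peak caller computed over its background and by the −log10 of the q-value.

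The names given to the peaks inside the deposited anti-IL-17 list carry the same prefix as those in the list of adult mice, whereas the control list has a prefix of its own. Which of the former lists belongs to the treated mice thus rests on the sample labels. Values with the adult list put in its place were computed for the overlaps, the counts of genes and the motif shares of whole classes. They were not computed for ratios at shared peaks, ranges of −log10 q or single lists of genes. The lists held peaks at keratinocyte genes: of 10 keratinocyte markers, 5 had a p65 peak in the control and 7 in the anti-IL-17 pool. None of 7 T cell and none of 7 melanocyte markers had a peak in either list. Of 7 fibroblast markers, only Pdgfra had a peak, in the anti-IL-17 pool, and of 8 Langerhans cell and macrophage markers 2 had a peak in each list. Of 5 endothelial markers, Pecam1 had 3 peaks in each, all at least 37000 bp downstream of its start, the strongest with a fold enrichment of 11.2 in the control and 15.8 in the anti-IL-17 pool. A p65 peak is not a measure of expression, and the share of other cell types in these preparations was not tested.

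NF-κB is a family of dimeric transcription factors, and p65, encoded by Rela, is the subunit that carries most of its activating function. In resting cells, inhibitors of the IκB family hold p65 in the cytoplasm. Kinases of the IKK complex, reached from the TNF, IL-1 and IL-17 receptors through TRAF adaptors, mark these inhibitors for degradation, and p65 then enters the nucleus and activates, among others, the genes of its own inhibitors. Keratinocytes carry the IL-17 receptor and respond to it with chemokines and antimicrobial proteins, and NF-κB activity in the epidermis needs to be held within limits for normal differentiation.

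The sequences below show the range of sites on which the comparison turns. Each is 201 bases of the mm10 reference (RefSeq, GRCm38.p6) on the plus strand, centred on the summit of a peak, and capitals mark matches to the NF-κB motif, on either strand. The peak at the start of Birc3 (chr9:7872925-7873125) was in both lists and much stronger in the anti-IL-17 pool, and it held 2 separate matches. The peak in an intron of Ehf (chr2:103271584-103271784) was in both lists and stronger in the control, and it held none.
Birc3: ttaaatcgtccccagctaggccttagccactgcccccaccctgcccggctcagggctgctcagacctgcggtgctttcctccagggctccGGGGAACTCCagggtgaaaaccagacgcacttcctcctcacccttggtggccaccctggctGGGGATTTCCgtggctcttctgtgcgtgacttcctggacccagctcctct
Ehf: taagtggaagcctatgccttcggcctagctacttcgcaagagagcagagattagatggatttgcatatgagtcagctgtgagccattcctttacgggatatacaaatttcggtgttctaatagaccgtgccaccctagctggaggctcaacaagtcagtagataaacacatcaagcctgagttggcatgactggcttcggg
Peaks near Icosl (chr10:78092761-78092961), just inside the start of Ddx58 (chr4:40239593-40239793) and at the keratin genes Krt14 (chr11:100206105-100206305) and Krt15 (chr11:100136719-100136919) were called in the anti-IL-17 pool and not in the control. That near Icosl held 2 overlapping matches, those at Ddx58 and Krt14 held 1 each, and that at Krt15 held none.
Icosl: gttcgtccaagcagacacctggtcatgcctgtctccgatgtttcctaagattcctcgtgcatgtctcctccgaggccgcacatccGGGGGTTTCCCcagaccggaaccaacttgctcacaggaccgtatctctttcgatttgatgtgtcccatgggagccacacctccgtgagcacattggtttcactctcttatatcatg
Ddx58: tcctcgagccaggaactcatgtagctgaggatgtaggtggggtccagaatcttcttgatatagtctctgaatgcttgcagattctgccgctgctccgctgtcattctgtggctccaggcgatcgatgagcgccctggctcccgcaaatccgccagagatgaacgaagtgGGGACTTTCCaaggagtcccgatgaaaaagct
Krt14: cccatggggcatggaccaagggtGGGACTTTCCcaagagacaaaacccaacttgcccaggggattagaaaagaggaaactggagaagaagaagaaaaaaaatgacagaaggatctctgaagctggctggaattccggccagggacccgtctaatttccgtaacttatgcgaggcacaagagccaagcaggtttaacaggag
Krt15: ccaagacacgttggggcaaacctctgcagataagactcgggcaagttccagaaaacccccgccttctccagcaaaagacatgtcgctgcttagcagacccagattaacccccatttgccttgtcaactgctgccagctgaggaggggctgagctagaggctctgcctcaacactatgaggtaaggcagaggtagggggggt
Peaks in an intron of Wdfy3 (chr5:101959458-101959658), upstream of Krt2 (chr15:101826401-101826601) and upstream of Krt77 (chr15:101869768-101869968) were called in the control and not in the anti-IL-17 pool, and only that near Krt2 held a match.
Wdfy3: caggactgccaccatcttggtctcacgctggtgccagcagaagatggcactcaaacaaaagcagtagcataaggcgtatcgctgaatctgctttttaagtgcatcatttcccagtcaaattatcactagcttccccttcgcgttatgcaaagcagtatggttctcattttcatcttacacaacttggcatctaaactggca
Krt2: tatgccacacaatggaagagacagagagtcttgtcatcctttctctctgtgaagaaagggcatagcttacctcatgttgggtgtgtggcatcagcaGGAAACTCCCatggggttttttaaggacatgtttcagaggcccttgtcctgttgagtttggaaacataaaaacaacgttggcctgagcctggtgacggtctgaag
Krt77: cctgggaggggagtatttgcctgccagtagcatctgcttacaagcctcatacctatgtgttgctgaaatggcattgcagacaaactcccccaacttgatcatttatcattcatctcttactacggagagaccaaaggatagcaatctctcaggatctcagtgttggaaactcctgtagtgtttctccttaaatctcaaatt

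The first question was how much of the p65 map the blockade of IL-17 left in place. Of the 4169 control peaks, 3612 overlapped an anti-IL-17 peak by at least 1 bp and 557 (13.4%) overlapped none. In the other direction, 2409 of the 6014 anti-IL-17 peaks (40.1%) overlapped no control peak. The lists differ in length, so the comparison was repeated with as many peaks as the control list holds, that is, with all control peaks against the strongest 4169 anti-IL-17 peaks by −log10 q. The last peak inside this limit, nearest to Ubxn6, and the next one outside, nearest to Sirt4, had the same −log10 q of 9.77 and the same fold enrichment of 3.33. At equal number, 1018 control peaks (24.4%) and 1031 anti-IL-17 peaks (24.7%) had no partner, counts that must be close where lists of 1 size overlap mostly peak by peak. Of the control peaks without a partner at equal number, 461 did overlap an anti-IL-17 peak, but one below the limit. With the adult list in place of the anti-IL-17 list, 75.9% of control peaks and 75.5% of the others were shared at equal number, against 75.6% and 75.3%.

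The strongest peaks were in both lists. All of the 750 strongest peaks of each list were found somewhere in the other list. Of the 614 control peaks with a −log10 q of at least 40, none lacked a partner, which allows a share of up to 0.489%, and none of 1029 anti-IL-17 peaks of that strength did, which allows up to 0.292%. At a −log10 q of at least 20, 5 of 1519 control peaks (0.329%, 0.141 to 0.768%) and 101 of 2241 anti-IL-17 peaks (4.51%, 3.72 to 5.45%) had no partner. At a −log10 q of at least 10, these were 155 of 2947 (5.26%, 4.51 to 6.13%) and 1007 of 4133 (24.4%, 23.1 to 25.7%). Of the strongest 100 peaks of each list, 75 were among the strongest 100 of the other, and of the strongest 500, 411 were.

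**Figure D1:**
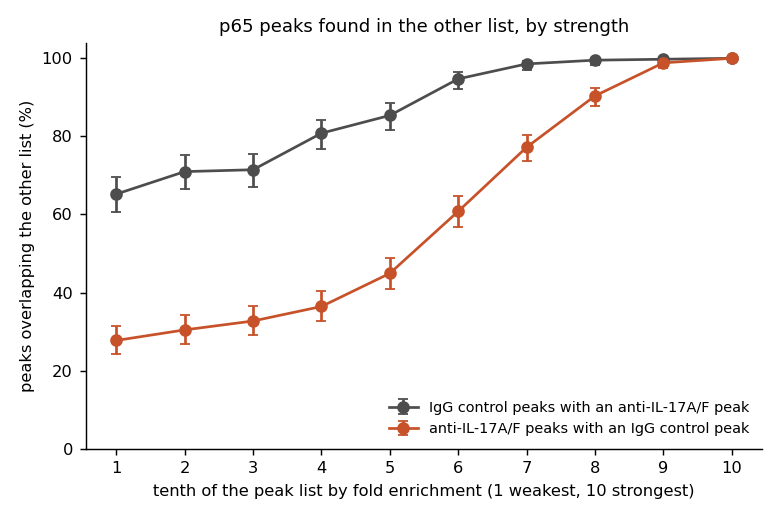
Share of the peaks in each list that overlap a peak of the other list (y axis, %, all peaks of the other list), by decile of the list from lowest to highest fold enrichment (x axis); points are the control (grey) and the anti-IL-17 pool (red), and bars are 95% Wilson intervals for counting error. The share went from 65.2% to 100% in the control list and from 27.7% to 100% in the anti-IL-17 list, and the curves meet only in the strongest deciles.

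The plot by decile shows that 65.2% of the control peaks in the lowest decile of fold enrichment had a partner, and 85.4% of those in decile 5. The corresponding shares of anti-IL-17 peaks were 27.7% and 44.9%. In deciles 9 and 10, at least 98.8% of peaks in either list had a partner.

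The sequence under the peaks and their position were then compared between the classes. The NF-κB motif was sought within 100 bp of each summit on both strands. It was present at 44.4% (42.7 to 46.2%) of the control peaks shared at equal number. Among the 557 control peaks without any partner, 95 held it, which is 17.1% (14.2 to 20.4%). Among the 1031 anti-IL-17 peaks of the strongest 4169 without a control partner, 341 held it, which is 33.1% (30.3 to 36.0%). Of the 1378 weaker anti-IL-17 peaks without a control partner, 263 held it (19.1%, 17.1 to 21.2%). Over all 2409 anti-IL-17 peaks without a control partner the share was 25.1%, above the 17.1% of the control peaks, but with the adult-labelled list in place of the anti-IL-17 list the order was reversed (18.7% and 20.4%). Windows of the same width 2000 bp away held the motif in 1.92 to 2.43% of cases in these classes.

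Since the motif is more frequent at strong peaks, the shares were compared within ranges of −log10 q. Between 10 and 20, the motif was present at 32 of the 150 control peaks without a partner (21.3%, 15.5 to 28.6%) and at 473 of 1278 with one (37.0%, 34.4 to 39.7%). In the same range, it was present at 294 of 906 anti-IL-17 peaks without a control partner (32.5%, 29.5 to 35.6%) and at 314 of 986 with one (31.8%, 29.0 to 34.8%). Between 20 and 40, the shares in the anti-IL-17 pool were 41.6% (32.5 to 51.3%, n = 101) without and 43.9% (41.0 to 46.9%, n = 1111) with a partner, while the control had only 5 peaks without a partner, none with the motif. Between 10 and 20 the intervals with and without a partner thus overlapped in the anti-IL-17 pool and did not overlap in the control. Between 5 and 10 they overlapped in both, with 17.3% (13.5 to 21.9%) and 24.2% (21.3 to 27.5%) in the control.

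**Figure D2:**
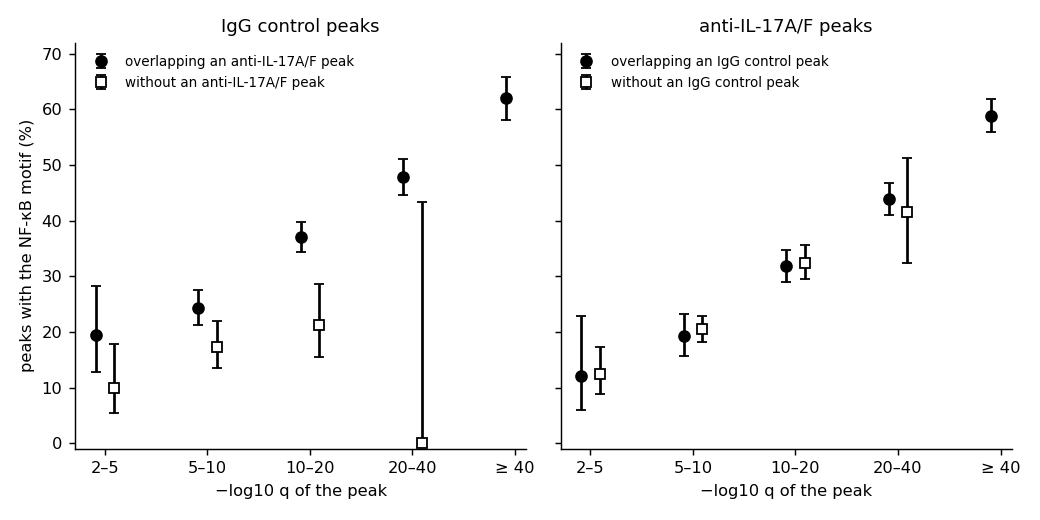
Share of peaks with the NF-κB motif within 100 bp of the summit (y axis, %) in ranges of −log10 q (x axis), for control peaks (left) and anti-IL-17 peaks (right); filled circles are peaks that overlap the other list, open squares peaks that do not, and bars are 95% Wilson intervals for counting error. From 5 to 20, open squares lie below the circles in the control panel and beside them in the other, and no peak of at least 40 lacked a partner. Control peaks were sought in the longer list, so the panels are not at equal number.

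The other motifs were closer to each other across the classes. The AP-1 motif TGANTCA, bound by dimers of Fos and Jun proteins, was present at 11.1% (8.78 to 14.0%) of control peaks without a partner and at 17.4% (15.2 to 19.8%) of the stronger anti-IL-17 peaks without one. The weaker anti-IL-17 peaks without a partner held it in 12.3% (10.6 to 14.1%). Peaks shared at equal number held it in 15.1% of cases in each list, and flanking windows in 6.02 to 6.26%. The GC box GGGCGG was present at 25.9% of control peaks without a partner, at 20.5% of the stronger and 27.4% of the weaker anti-IL-17 peaks without one and at 21.9% of the shared control peaks. The C/EBP motif TTGCNNAA, whose factors act downstream of IL-17, was present at 8.44% (6.405 to 11.04%) of control peaks without a partner and at 9.99% (8.31 to 12.0%) of the stronger anti-IL-17 ones. A match is a stretch of letters and does not show that a factor was bound.

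In position, 38.6% (34.6 to 42.7%) of control peaks without a partner were no more than 1 kb from the nearest transcription start, against 29.3% (26.6 to 32.1%) of the stronger anti-IL-17 peaks without a control partner and 30.6% (29.0 to 32.3%) of shared control peaks. Among the weaker anti-IL-17 peaks without a partner, the share within 1 kb was 40.6% (38.1 to 43.3%). For −log10 q between 10 and 20, the share was 27.3% (20.8 to 35.0%) for control peaks without a partner, 30.4% (28.0 to 33.0%) for those with one and 29.5% (26.6 to 32.5%) for anti-IL-17 peaks without one, with intervals that overlapped. The list of adult mice gave a further readout that did not enter the comparison. It held a peak at 68.6% (64.6 to 72.3%) of the control peaks that had no anti-IL-17 partner and at 79.7% (77.2 to 82.1%) of the stronger anti-IL-17 peaks that had no control partner. For the weaker ones this was 59.9% (57.3 to 62.4%) and for all 2409 together 68.4% (66.5 to 70.2%), close to the control share. For −log10 q between 10 and 20, these shares were 76.7% (69.3 to 82.7%) and 78.3% (75.5 to 80.8%), with intervals that overlapped.

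Among peaks present in both lists, 3562 had a single partner on either side, and their fold enrichments were compared. The median ratio of anti-IL-17 to control was 1.10, or 0.14 on the log2 scale, with an SD of 0.35 across peaks, and each ratio below is given relative to this median. Across these peaks, log2 fold enrichments of the 2 pools had a Pearson r of 0.81 and a Spearman rho of 0.75, as a description over peaks of the same pair of libraries. Past a limit of 1.5-fold, 167 peaks (4.69%) were higher in the anti-IL-17 pool and 177 (4.97%) were lower. Of the 1453 pairs whose control window held the NF-κB motif, 83 were higher and 56 lower. Of the 2109 without it, 84 were higher and 121 lower.

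**Figure D3:**
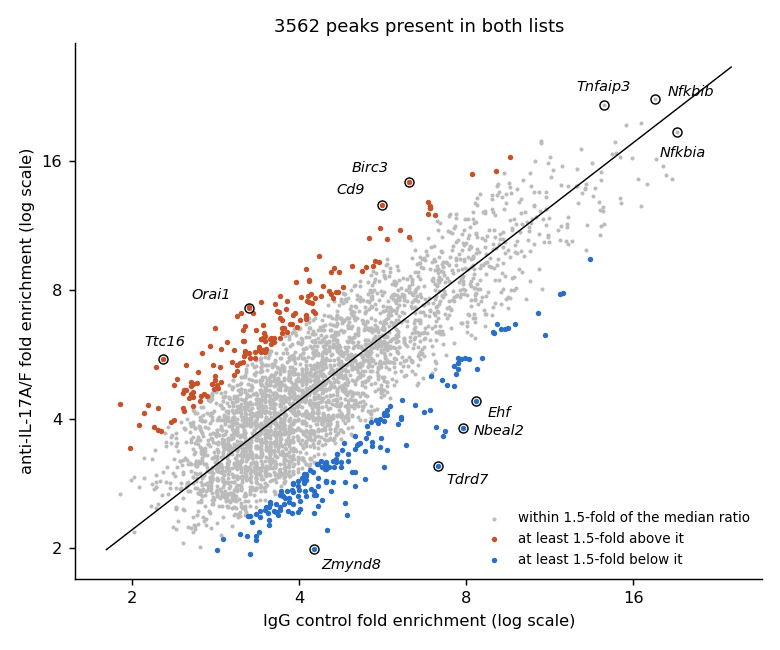
Fold enrichment in the anti-IL-17 pool (y axis, log scale) against that in the control (x axis, log scale) for the 3562 peaks with a single partner in the other list; the line is the median ratio of 1.10, coloured points are at least 1.5-fold above (red, 167 peaks) or below it (blue, 177 peaks), and circles mark peaks of the genes written beside them. Nfkbia, Nfkbib and Tnfaip3 lie at the strong end within 1.5-fold of the line, and Birc3 and Cd9 stand well above it at a control fold enrichment of 6.32 and 5.64.

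The peak pairs with the largest ratios, among those nearest to a protein-coding gene, were chosen for their ratio, and their values are a description. At the start of Birc3, which encodes the ubiquitin ligase cIAP2 that carries the TNF signal to NF-κB and protects cells from death, fold enrichment was 6.32 in the control and 14.3 in the anti-IL-17 pool, with rank 213 of 4169 and rank 57 of 6014. At a peak upstream of Cd9, a tetraspanin of keratinocyte adhesion and migration, it was 5.64 and 12.6. In an intron of Orai1, the pore of the store-operated calcium channel, it was 3.25 and 7.27, and near Ifitm1, an interferon-induced membrane protein, 3.41 and 7.49. The other pairs among the 10 largest ratios were nearest to Ttc16 (2.27 and 5.54), Prss23 (2.21 and 5.29), Amz2 (2.82 and 6.53), Oxld1 (1.90 and 4.34), Zfp326 (3.15 and 7.08) and Lrrk1 (4.35 and 9.62). Most of the 10 had a control rank beyond 2000, and those at Birc3, Orai1 and Ifitm1 held 2 matches to the NF-κB motif.

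Chosen in the same way, the largest ratios in the other direction included Tdrd7. There, fold enrichment at the start of the gene was 7.11 in the control and 3.11 in the anti-IL-17 pool. In an intron of Ehf, an ETS factor of the differentiated epidermis, it was 8.34 and 4.42, with rank 156 of 4169 and rank 1512 of 6014. A peak 1086 bp upstream of Junb, an AP-1 subunit, had 4.48 and 2.21. At the start of H3f3b, which encodes the histone variant H3.3, fold enrichment was 7.32 and 3.74, and upstream of Capn2, a calcium-dependent protease, 7.27 and 3.65. The remaining pairs were nearest to Zmynd8 (4.26 and 1.99), Nbeal2 (7.89 and 3.82), Ift140 (4.87 and 2.39), Ndel1 (4.84 and 2.55) and Arhgap10 (7.07 and 3.84). Of these 10 peaks, only that at Arhgap10 held the NF-κB motif.

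Several genes of the NF-κB system, among them Nfkbia, Nfkb2, Nfkbib and Tnfaip3, held some of the strongest p65 peaks under either treatment, as did genes outside it, such as Junb and Chd2. All 5 subunit genes had a peak in both lists. The fold enrichment at the start of Rela, which encodes p65, was 10.03 in the control and 13.0 in the anti-IL-17 pool. For Nfkb2, which encodes p100/p52, it was 16.5 and 19.6. For Relb it was 13.5 and 15.8, for Rel 10.1 and 11.4, and for Nfkb1 5.47 and 6.25. Of the 8 subunit peak pairs, 7 had a ratio above the median, and their centred log2 ratios lay between -0.02 and 0.24, far inside the 1.5-fold limit.

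Most of the genes that restrain NF-κB were bound in both lists. Of 18 annotated feedback inhibitors, 11 were bound in the control and 12 in the anti-IL-17 pool, the addition being Tax1bp1, a partner of A20, and the number of their peaks was 29 in the control, 42 in the longer anti-IL-17 list and 36 at equal number. No inhibitor was bound in the control and not in the anti-IL-17 pool, against a background of 10.1% of control-bound genes over all peaks. The peak at Nfkbia, which encodes IκBα, ranked highest in both lists, with fold enrichments of 19.2 and 18.7. The peak at Nfkbib had 17.5 and 22.3, and that at the start of Tnfaip3, which encodes the deubiquitinase A20, 14.2 and 21.6. At Cyld, another deubiquitinase, the values were 10.1 and 14.4, and at Nfkbie 7.89 and 10.3. Around Nfkbia the peaks did not move together: 45650 bp downstream of the start it was 14.0 and 11.3, 2708 bp upstream 12.4 and 10.4, and 5210 bp upstream 3.54 and 5.76. Over all 27 inhibitor pairs, 17 lay above the median ratio, the centred log2 ratios ran from -0.45 to 0.58 and their median was 0.12, beside 0 for all pairs by construction. None passed 1.5-fold.

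**Figure D4:**
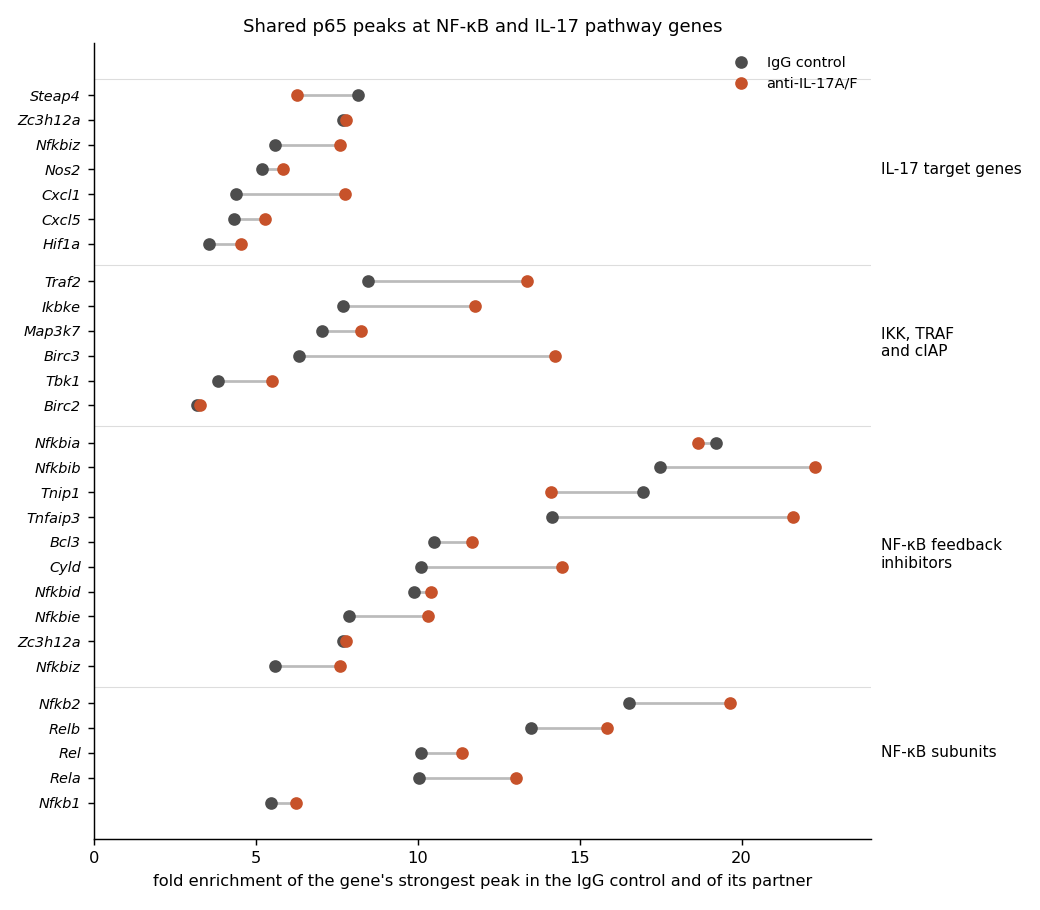
Fold enrichment over background (x axis) of the p65 peak that was strongest in the control at each gene (grey) and of its partner in the anti-IL-17 pool (red), for genes of 4 lists with a peak pair. The values are not centred, and the median ratio over all shared pairs is 1.10, so that a red point to the right is the more common case among all pairs. Birc3 shows the widest gap (6.32 and 14.3), and Nfkbia, Tnip1 and Steap4 have the red point on the left.

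Among components upstream of p65, 1 peak passed 1.5-fold. Of 20 genes for IKK kinases, TRAF adaptors and cIAP ligases, 7 were bound in the control and 11 in the anti-IL-17 pool, or 8 at equal number. Of the 11, 4 had no control peak, beside 33.3% of all genes bound in the anti-IL-17 pool. Ube2n, the ubiquitin-conjugating enzyme that works with TRAF6, was bound within the strongest 4169 peaks, whereas the peaks at Ikbkb, Traf1 and Traf5 were below that limit. The 8 shared pairs had a median centred log2 ratio of 0.39, and 7 of them lay above the median of all pairs, but only Birc3 passed 1.5-fold. The peak in an intron of Traf2 had a fold enrichment of 8.46 in the control and 13.4 in the anti-IL-17 pool. That upstream of Ikbke, an IKK-related kinase, had 7.68 and 11.8, and that upstream of Map3k7, which encodes TAK1, 6.77 and 9.87.

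Of 19 annotated receptors and signal carriers of IL-17, 3 had a peak in the control and 7 in the anti-IL-17 pool, but only 2 of these were within the strongest 4169. Over all annotated protein-coding genes, 12.9% had a peak in the control, 17.4% in the anti-IL-17 pool and 13.0% in its strongest 4169. The receptor gene Il17re had a peak in the control (fold enrichment 3.68, 7201 bp upstream) and none in the anti-IL-17 pool. Il17ra, which encodes the receptor chain shared by the family, had a weak peak in the anti-IL-17 pool (2.41, rank 5835) and none in the control. Arid5a, an RNA-binding protein of the IL-17 response, had a peak in the anti-IL-17 pool at the edge of the strongest 4169 (2.99, rank 4138), and Cebpb had one below it (2.43, rank 5686).

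Of 28 annotated target genes of IL-17, 7 were bound in each list, with all 7 in common. The peak at the start of Cxcl1, a neutrophil-attracting chemokine and a classic IL-17 target, had a fold enrichment of 4.38 in the control and 7.76 in the anti-IL-17 pool, and it passed 1.5-fold. Of the peaks at Nfkbiz, which encodes the IκBζ cofactor of IL-17 responses, that just upstream of the gene had 5.46 and 8.34, and that inside it, near an internal start site, 5.58 and 7.59. At Zc3h12a, which encodes the RNase Regnase-1 that limits IL-17 signaling, 5 peaks were shared, and their centred log2 ratios lay between -0.12 and 0.35. Steap4, a metalloreductase induced by IL-17, went the other way with 8.15 and 6.29, short of 1.5-fold. Over the 12 pairs at these genes, 10 lay above the median ratio. The pairs at Nfkbiz and Zc3h12a are also among the inhibitor pairs above, so the counts for the lists are not independent.

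At the level of genes, each peak was given to the nearest transcription start site among curated RefSeq transcripts, and only protein-coding genes were kept. The control peaks then lay at 2706 genes and the anti-IL-17 peaks at 3649, with 2433 in common. Of the control-bound genes, 273 (10.1%) had no anti-IL-17 peak, and of the anti-IL-17-bound genes 1216 (33.3%) had no control peak. At equal number of peaks, these were 536 of 2706 (19.8%) and 563 of 2733 (20.6%). The counts over all peaks depended on the setting: the 273 became 168 when peaks below a −log10 q of 10 were left out, and with the adult-labelled list the 273 and 1216 became 126 and 2258. The counts below are read against the shares given here.

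Other inflammatory genes differed by list. Of 46 TNF ligands and receptors, 10 were bound in the control and 18 in the anti-IL-17 pool, or 13 at equal number. Those added within the strongest 4169 were Tnfrsf1b, which encodes TNF receptor 2 (fold enrichment 3.57), the death receptor gene Tnfrsf21 (3.44) and Eda2r (4.19). These are 3 of 13, beside a background of 20.6%, and no member was bound in the control alone. Of 60 chemokines and chemokine receptors, 8 were bound in the control and 12 at equal number in the anti-IL-17 pool. The 4 added were the scavenging receptors Ackr2 (3.97) and Ackr3 (3.48), Ccl21a (3.92) and Ccl28 (3.79), an epithelial chemokine. Of 29 interferon response genes, 9 and 11 were bound, and Ddx58, which encodes the RNA sensor RIG-I (4.81), and Ifitm3 (4.19) were those added. Further lists held as many genes in both pools at equal number, or 1 fewer in the anti-IL-17 pool: of IL-1 family genes 4 and 3, of the IL-12 and IL-23 axis 7 and 7, of the type 2 and TSLP axis 5 and 4, of MHC class I and antigen processing 9 and 9, and of the Toll-like receptor pathway 2 and 2. Of 32 survival and apoptosis genes, 15 were bound in the control and 16 in the anti-IL-17 pool, or 11 at equal number. At equal number, 4 of the 15 were bound in the control alone, beside 19.8% of all control-bound genes, and none was added. Gadd45g had no anti-IL-17 peak, whereas Bcl2l1, Bcl2l11 and Cdkn1a had peaks below the limit. The 21 shared pairs of this list had a median centred log2 ratio of -0.09, and only Birc3 passed 1.5-fold.

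Besides Il17re, single cytokine and receptor genes had a peak in the control and none in the anti-IL-17 pool. These were Il1r1, the IL-1 receptor (fold enrichment 2.40, rank 4118 of 4169), Il12rb2 (3.09), Il9 (3.06) and Crlf2, the TSLP receptor (2.66). None of these 4 peaks held the NF-κB motif, none overlapped a peak in the adult list, and all were among the weaker control peaks. In the opposite direction, Il25, an IL-17 family cytokine, had a peak in the anti-IL-17 pool alone at rank 4019 (3.44), and Stat6, which carries IL-4 and IL-13 signals, had 3, the strongest with 3.57. Of 27 genes for IL-6 family and JAK-STAT signaling, 12 were bound in the control and 12 at equal number in the anti-IL-17 pool. At the start of Jak1, fold enrichment was 4.02 and 6.80. At Osmr, the receptor for oncostatin M, the shared peaks differed in opposite directions, with 4.48 and 3.14 in the gene 3.20 and 5.67 at 35391 bp upstream and 3.04 and 4.69 at 40046 bp upstream. A further peak 590 bp upstream of Osmr (5.84, rank 1256) was called in the anti-IL-17 pool and not in the control.

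Of 22 AP-1 genes, 12 were bound in each list, at equal number too. Of their 28 shared pairs, 1 was at least 1.5-fold higher and 4 were lower, beside 4.69% and 4.97% of all shared pairs. Junb, the AP-1 subunit that restrains skin inflammation, had lower fold enrichment in the anti-IL-17 pool at both upstream peaks, with 4.48 and 2.21 at 1086 bp and 5.60 and 4.01 at 2183 bp. Its main peak 2344 bp downstream of the start had 18.8 and 14.5. The peak at the start of Jun had 4.05 and 2.91, and one 21851 bp upstream of Fos 3.34 and 2.13. Fosl1, which encodes Fra-1, had 4.70 and 7.93. Fosb had 3 peaks in the control and 8 in the anti-IL-17 pool, 6 of them within the strongest 4169, and the 3 added beyond 12 kb upstream had fold enrichments of 4.72, 5.02 and 4.47.

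Keratins form the intermediate filaments of keratinocytes and mark their layer: Krt5 and Krt14 are made in the basal layer, Krt15 and Krt19 also in hair follicle stem cells, and Krt10, Krt2 and Krt77 in the layers above. Of 49 annotated keratins, 11 were bound in the control and 13 in the anti-IL-17 pool, or 10 at equal number, with 8 in common over all peaks and 6 at equal number. Over all peaks, 5 of the 13 had no control peak, against a background of 33.3%, and 3 of the 11 had no anti-IL-17 peak, against 10.1%. At equal number, 4 of the 10 had no control peak, against a background of 20.6%, and 5 of the 11 had no anti-IL-17 peak, against 19.8%. The counts are small and were not tested.

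Within the strongest 4169, Krt14, Krt15, Krt5 and Krt19 were bound in the anti-IL-17 pool alone. The peak inside Krt14 had a fold enrichment of 3.91 at rank 2754. Krt15 had 2 peaks, 866 bp and 48 bp upstream of its start, with 4.34 (rank 2400) and 3.92 (rank 3042). The peak 4593 bp upstream of Krt5 had 3.21 (rank 3680), and that 22314 bp upstream of Krt19 had 3.53 (rank 3642). The keratins bound in the control alone over all peaks were Krt77 (2.98, rank 3667 of 4169), Krt10 (2.58, rank 4107) and Krt2 (2.21, rank 4156). The −log10 q was 6.77 for Krt77, 3.95 for Krt10 and 3.04 for Krt2, and 11.4 for Krt5 and 11.7 for Krt19. Krt31 and Krt80 had weak peaks in both lists, below the limit in the anti-IL-17 pool, and Krt8 had a peak below the limit in the anti-IL-17 pool alone (2.26, rank 5822). Each of Krt5, Krt14, Krt15, Krt19, Krt10, Krt2 and Krt77 also had a peak in the adult list, that for Krt10 at another position. A shared peak near Krt42 and another near Krt78 were lower in the anti-IL-17 pool by over 1.5-fold, with fold enrichments of 5.41 and 3.45, and 4.21 and 2.74. Other shared peaks differed less, with 3.14 and 3.19, and 2.88 and 3.14, near Krt42. Near Krt78 they had 5.12 and 4.60, and 4.41 and 3.98. Keratin genes lie in dense clusters, so that the nearest start site is an uncertain assignment for the peaks away from a promoter.

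**Figure D5:**
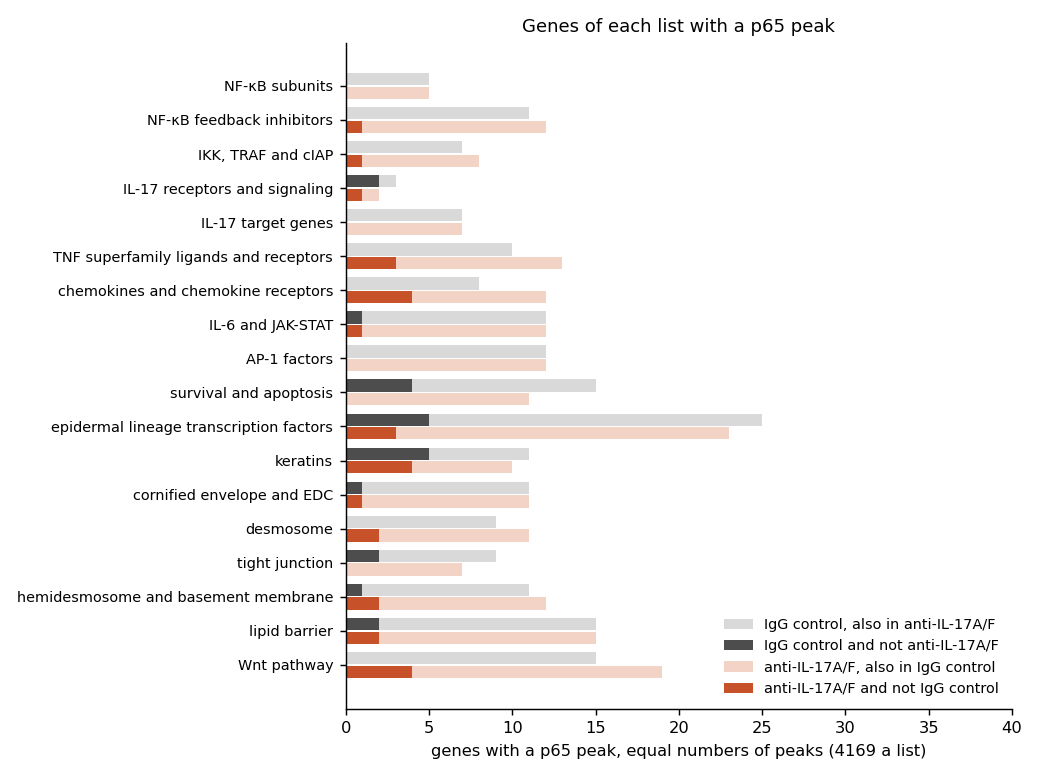
Number of genes with a p65 peak in 18 lists of genes (x axis), at 4169 peaks a list; upper bars are the control and lower bars the anti-IL-17 pool, and dark parts are genes bound in that list and not in the other. NF-κB subunits, IL-17 targets and AP-1 factors have no dark part, and keratins have one on either side (5 of 11 and 4 of 10).

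For the genes of the barrier and of adhesion, the number bound in the 2 pools differed by at most 2 a list at equal number of peaks, although the members bound were not all the same. Of 69 genes for the cornified envelope and the epidermal differentiation complex, which build the outermost layer, 11 were bound in the control and 19 in the anti-IL-17 pool, but 11 at equal number. The transglutaminase gene Tgm3 was the only one added within the strongest 4169 (fold enrichment 3.96), Tgm1 was in that set for the control only, and Crnn, Evpl, Lce6a, Ppl, Rptn, S100a14 and S100a16 had peaks below that limit. At S100a4, fold enrichment was 3.81 and 6.40. Of 27 genes of hemidesmosomes and the basement membrane, which anchor basal cells, 11 were bound in the control and 12 at equal number in the anti-IL-17 pool, and 3 of 15 shared pairs were at least 1.5-fold higher and none lower, beside 4.69% and 4.97% of all shared pairs. These were at Itgb6, an integrin chain (3.81 and 7.52), Col17a1, a hemidesmosomal collagen (2.56 and 4.59), and Itga3 (2.81 and 4.71). Lama3 and Lamc1 (4.05) were added, and Lama5 had a control peak alone (3.13). Of 23 desmosome genes, 9 were bound in the control and 11 at equal number in the anti-IL-17 pool. Dsc1 and Dsc3 were added, and none was bound in the control alone. The 16 shared pairs of this list had a median centred log2 ratio of -0.11, and 1 of them was at least 1.5-fold lower. Of 17 tight junction genes, 9 were bound in the control and 7 at equal number in the anti-IL-17 pool. Their 13 shared pairs had a median centred log2 ratio of -0.24, with Pard6b at 8.10 and 5.53 and Tjp3 at 3.52 and 2.41, and Ocln, which encodes occludin, had a control peak alone (2.84).

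In lipid barrier genes, 15 of 30 were bound in the control and 15 at equal number in the anti-IL-17 pool. The ceramide enzymes Degs2 (fold enrichment 3.26) and Ugcg (3.40) had peaks in the anti-IL-17 pool alone, and Fabp5, a fatty acid carrier, in the control alone (3.91). The peak upstream of Alox12b, a lipoxygenase of the barrier, had 2.10 and 4.14, and that at the start of Sptlc2, a subunit of the enzyme that starts sphingolipid synthesis, 4.81 and 8.11.

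Transcription factors of the epidermal lineage were bound often, with 25 of 46 in the control and 31 in the anti-IL-17 pool, or 23 at equal number. Those added within the strongest 4169 were Ezh2, the enzyme of repressive H3K27 methylation (fold enrichment 4.12, with 3 NF-κB motif matches), Foxc1 (3.19, also 3 matches) and Prdm1, which encodes Blimp-1 (3.44, with 2 matches). These are 3 of the 23, beside 20.6% of all genes bound in the anti-IL-17 pool at equal number. At equal number, 5 of the 25 were bound in the control alone, close to the 19.8% of all control-bound genes. Sox9, a hair follicle stem cell factor, had no anti-IL-17 peak at all (3.64 in the control), and Barx2, Grhl2, Ovol1 and Tfap2a had anti-IL-17 peaks only below the limit. Klf4, a factor of the late-differentiating layers, had 6 peaks in the control and 11 in the anti-IL-17 pool, spread over a gene-poor region, and all 6 control peaks were shared. Of the peaks added at Klf4, all had a fold enrichment of 3.57 or less. Its strongest peak, 370635 bp upstream, had 10.7 and 11.8, and its farthest, 581438 bp upstream, 3.09 and 5.36.

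Some genes differed by several peaks. Rara, the retinoic acid receptor alpha, had none in the control and 5 in the anti-IL-17 pool, with fold enrichments of 2.57 to 3.36, of which 1 was within the strongest 4169. Casz1 went from 2 to 7 peaks over all peaks but stayed at 2 at equal number. Ezr, which encodes the membrane-cytoskeleton linker ezrin, went from 2 to 6, or 4 at equal number, and its shared peaks had 4.38 and 6.05, and 5.31 and 5.73. Over all peaks, no gene had over 2 peaks fewer in the anti-IL-17 pool. At equal number, Erbin had 3 in the control and 0 in the anti-IL-17 pool. Acsl5, a fatty acid CoA ligase, had intronic peaks of 3.80 and 4.19 in the control and none in the anti-IL-17 pool. Lrig1, a stem cell marker that restrains EGF receptor signaling, had 2 weaker peaks in the control alone (2.77 and 3.48) and shared the strong one 79864 bp upstream (8.30 and 8.09). At Gadd45b, 6 control peaks stood against 4, but there 2 neighbouring control peaks fell within 1 broad anti-IL-17 peak. Over all peaks, 1726 genes had more peaks in the anti-IL-17 pool, 373 had fewer and 1823 as many, and at equal number 755 had more and 752 fewer.

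Among peaks nearest to a protein-coding gene, the strongest without a partner began at rank 809 of 4169 in the control and at rank 1093 of 6014 in the anti-IL-17 pool. In the control they were led by Wdfy3 (fold enrichment 5.73, rank 809), in an intron 110319 bp from the nearest start, followed by Ptk2b (4.66), which encodes the kinase Pyk2, Skint1 (4.98), a gene expressed in skin keratinocytes that selects epidermal γδ T cells, Itpr2 (4.76), Adamts9 (4.48), Eva1c (4.23), Arid3b (3.81), Thg1l (4.34), Dapp1 (4.34) and Camk1d (3.94). Of these 10, only that at Adamts9 held the NF-κB motif. In anti-IL-17 they were led by Slc25a13 (6.18, rank 1093) and Osmr (5.84), followed by Zbtb34 (5.48), Soga1 (4.65), Zdhhc3 (5.52), Icosl (5.57), which encodes the ligand of the T cell costimulator ICOS, Pglyrp4 (5.43), a peptidoglycan recognition protein of the skin, Zfp36l2 (4.74), Olfr183 (5.50) and Tmod1 (5.43). Peaks nearest to Slc25a13, Zbtb34, Zdhhc3, Icosl, Zfp36l2 and Olfr183 held the motif. All 20 of these peaks overlapped a peak in the adult list. That near Pglyrp4 lay 669 bp from the closest control peak and that near Osmr 1930 bp, so neither was isolated.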

How the data were processed

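Peaks of p65 ChIP–seq in epidermal cells were compared between old mice given control IgG and old mice given anti-IL-17A/F. The authors trimmed reads with Trimmomatic 0.36, aligned them to mm10, merged and deduplicated the 4 mice of a group, downsampled each pool to 1 common read number and used MACS2 (q of 0.01). Merging removes the spread between mice, and downsampling does not remove differences in immunoprecipitation efficiency. Whether the 3 inputs served as background for MACS2 is not given in the sources used here, and they were not used here. The deposited lists give each peak a score, a fold enrichment (a ratio to background), the −log10 of a p-value and the −log10 of a q-value.

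Peaks were shared when they overlapped by at least 1 bp, and were ranked by −log10 q. Ties were broken by fold enrichment, then position. The gene of a peak had the start site nearest to its middle (RefSeq, GRCm38.p6). All peaks lay within its chromosome lengths. Ratios of fold enrichment were taken over peaks with 1 partner and divided by their median. Shares have Wilson intervals. No test was run, since each group is 1 library.

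The members and the 38 gene lists were chosen with earlier results of these data known. Named genes are the 10 strongest peaks without a partner in each list, the 10 largest ratios each way, the strongest shared peaks, list members that differ in the same direction over all peaks and at equal number, members of the NF-κB and IL-17 lists, genes named by the paper, and those with the largest gain or loss of peaks. The peaks chosen by strength or by ratio were limited to those nearest to a protein-coding gene. List members with a shared peak past 1.5-fold, and the other genes named, were chosen after their values were seen. Alternatives were other overlap rules, thresholds, rankings, annotations and motif windows. Overlap, annotation and motif steps were tested on simulated data. Python 3.11.15 with pandas 2.3.3, numpy 2.4.6, pysam 0.24.0 and matplotlib 3.10.9 was used, with bedtools 2.31.1 as a check.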

Additional observations from a re-analysis of the deposited data

How the results depend on the processing

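Of 65 values computed under an alternative, 30 stayed within the counting interval of the main value or, for gene counts, within 1.5 times of it, and 35 did not. For control peaks found in the anti-IL-17 pool over all peaks (86.6%), the share was 83.3% with at least 50% of both peaks overlapping, 82.8% with summits within 150 bp, 89.4% when peaks below a −log10 q of 10 were left out and 93.3% with the adult-labelled list in place of the treated one. For anti-IL-17 peaks found in the control (59.9%), these were 57.7%, 57.4%, 63.8% and 45.5%. At equal number (75.6% and 75.3%), both shares were 73.2% under either other overlap rule. They were 73.2% and 72.9% with ranking by fold enrichment, 80.8% and 80.9% for the strongest 1000, 82.0% and 81.9% for the strongest 2000, and 79.8% in both directions for the strongest 3000. The counts of genes at equal number stayed within 1.5 times under every alternative. Over all peaks, the 273 control-bound genes without an anti-IL-17 peak became 168 at a −log10 q of at least 10 and 126 with the adult-labelled list, which raised the 1216 genes of the other direction to 2258. The motif share at control peaks without a partner (17.1%) was 21.2% at a −log10 q of at least 10, 11.8% within 50 bp, 20.6% within 200 bp and 20.4% with the adult-labelled list. At anti-IL-17 peaks without a partner (25.1%), it was 32.4%, 18.02%, 30.7% and 18.7%, and at control peaks with a partner (40.9%) 47.5%, 31.3%, 46.7% and 39.0%. The lower share at control peaks without than with a partner held under each of these. With the adult-labelled list, the order between control peaks and the other list's peaks without a partner was reversed. The cause was not tested. The adult-labelled alternative was chosen after seeing the data. No paired analysis was possible because each group is 1 pooled library. A weak peak may pass the threshold in one pool and miss it in the other with a small difference in signal, and no signal is given where no peak was called.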

Other observations

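Of 59 Wnt pathway genes, 15 were bound in the control and 19 at equal number in the anti-IL-17 pool. The 4 added were Wnt1 (fold enrichment 3.64, with 2 NF-κB motif matches), Wnt7b (3.34) and Wnt16 (3.47), which encode ligands, and the receptor gene Fzd10 (3.71). These 4 of 19 are close to the 20.6% of all genes bound in the anti-IL-17 pool at equal number. No member was bound in the control alone, beside 19.8% of all control-bound genes. In the EGF receptor system, 13 and 12 of 22 genes were bound at equal number, and 3 of 14 shared pairs passed 1.5-fold upward with none downward, beside 4.69% and 4.97% of all shared pairs. These were at Epgn, which encodes the ligand epigen (3.73 and 6.53), Egfr (3.09 and 5.17) and Mapk6 (3.61 and 6.06). Upstream of Jag1, a Notch ligand, fold enrichment was 2.51 and 5.33, whereas in an intron of Maml3, also in the Notch list, it was 5.83 and 4.29. At Skil, which encodes the SnoN brake on TGF-β signaling, it was 3.66 and 7.15.

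Among 40 chromatin regulators, the H3K27 demethylase gene Kdm6b had 3 shared peaks past 1.5-fold, the only ones among 16 pairs of the list, with fold enrichments of 3.70 and 6.18, 2.57 and 4.50, and 4.13 and 7.54. The opposing methyltransferase gene Ezh2 had its peak in the anti-IL-17 pool alone. In oxidative stress genes, 13 of 28 were bound in each list at equal number. Nqo1 (2.95) and Prdx6 (3.504), an NRF2 target and a peroxidase, had a peak in the anti-IL-17 pool alone, Bach1, a repressor of NRF2 targets, in the control alone (2.54), and the peak at Nfe2l2, which encodes NRF2, had 2.73 and 4.54. At H2-Q4, a class I gene with near-identical neighbours whose reads cannot be told apart with certainty, fold enrichment was 11.8 and 7.84. Upstream of Sfn, a keratinocyte marker, it was 9.07 and 15.1. Downstream of Perp, another such marker and a desmosome gene, it was 4.08 and 2.84 at 31331 bp, but 4.28 and 6.06 at 23968 bp.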
